A study of Bos taurus with 13 samples.

Results

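The count tables of the study list 564 microRNA loci among 16095 named genes, and the 66 loci described here are those whose name begins with bta-mir- or bta-let- and which had 50 or more counts summed over 13 cows. All 13 were Italian Red Pied dairy cows, a breed also called Italian Simmental, whose blood was drawn into PAXgene tubes, which preserve RNA at sampling, and globin RNA was not depleted. They were chosen by the cortisol in their milk, 7 from the high end of the ranking (high group, replicates 1 to 7) and 6 from the low end (low group, replicates 8 to 13), so cortisol was not given as a treatment. Cortisol is the main glucocorticoid hormone of cattle and rises in milk with its level in plasma. No other difference between the groups is given by the labels, and each sample is 1 cow. The loci just inside the limit of 50 counts were bta-mir-2904-3 with 55 counts, bta-mir-296 with 54 and bta-mir-3596 with 53, and those just outside it were bta-mir-331 with 46, bta-mir-2402 with 44 and bta-mir-106b with 43.

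A microRNA is cut from a long primary transcript, which is either a transcript of its own or an intron of a host gene. In the nucleus the enzyme *DROSHA* with its partner *DGCR8* cuts out a hairpin, *XPO5* carries the hairpin to the cytoplasm, and *DICER1* cuts it to the short mature microRNA that guides an Argonaute protein to its target mRNAs. Mature microRNAs are shorter than the fragments that a standard RNA library retains, so counts at a microRNA locus in such a library stand for longer RNA that covers the hairpin, and they do not measure the mature microRNA.

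Named genes held 12198355 to 23709740 counts per cow in the high group and 11045599 to 28124575 in the low group. Levels are given as CPM (counts relative to the scaled library total), and the 3 counts that a count of 0 allows correspond to 0.107 to 0.272 CPM at these depths, for counting error only. The sample label is blood cells, and the marker lists of neutrophils, monocytes, T cells, B cells, cytotoxic and NK cells, platelets and erythroid cells had no gene at 0 over all cows among those that the tables name. Summed erythroid markers (6 of 9 listed genes in the tables) ran from 373 to 7835 CPM in the high group and from 138 to 569 CPM in the low group. Of the 4 erythroid markers that could be tested, 3 had an unadjusted p below 0.05 (edgeR), against 2.09% of all genes tested. Of 6 neutrophil markers 4 were tested, 2 with an unadjusted p below 0.05 (edgeR), against the same 2.09%. The sum of these 4 ran from 3432 to 7275 CPM in the high group and from 5582 to 8074 CPM in the low group. The 5 other lists had 0 such genes. The part of these lists in the results on microRNA loci was not tested beyond the values given beside them. Haemoglobin RNA, summed over the 4 genes *HBB*, *HBG*, *HBM* and *HBQ1*, held 0.0282% to 0.815% of the counts on named genes in the high group. The highest value was that of replicate 7, and replicate 5 came next with 0.262%. In the low group the share was 0.0114% to 0.0552%. *HBA* and *HBA1* were not among the named genes, so the share may not hold all haemoglobin RNA. This haemoglobin share thus went with the groups in part, so a fit with it as a covariate cannot fully part it from the cortisol group.

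The 66 loci held 33311 counts, 0.0140% of all counts on named genes. Per cow their sum was 110 to 161 CPM in the high group (median 140) and 125 to 156 CPM in the low group (median 137), by total count alone, so the groups overlapped in the summed level. The sum rested on few loci, since 1 locus, bta-mir-3064, held 15.7% of it, the first 5 held 48.8% and the first 10 held 65.1%. The median locus had 146 counts over the 13 cows, 28 loci had 200 or more, and 51 had at least 1 count in every cow. Of the other microRNA loci of the tables, 278 were at 0 in all cows and 220 had between 1 and 49 counts.

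Per length, the highest level was that of bta-mir-3064, at 264 CPM per kb of annotated locus (mean of 13 cows). It was followed by bta-mir-142, a microRNA of blood-forming cells, at 203 CPM per kb and by bta-mir-2358 at 177 CPM per kb. These 3 loci had 11.1 to 23.1 CPM on average in the high group. Next came bta-mir-24-2 at 103 CPM per kb, bta-mir-223, a microRNA of granulocytes and monocytes, at 92.5, bta-mir-27a at 68.8, bta-mir-2382 at 68.7, bta-mir-23a at 64.7, bta-mir-1842 at 59.3 and bta-mir-1584 at 45.8 CPM per kb. The spread between cows was wide for most loci, with a coefficient of variation of CPM from 14.2% at bta-mir-1584 to 96.5% and a median of 45.7%. The ranges of neighbours in this order overlapped, as bta-mir-142 ran from 8.49 to 24.1 CPM and bta-mir-3064 from 12.7 to 36.5 CPM over the 13 cows. In whole blood, fewer cells of a type and less RNA per cell cannot be told apart, and this holds for each level given here.

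**Figure D1:**
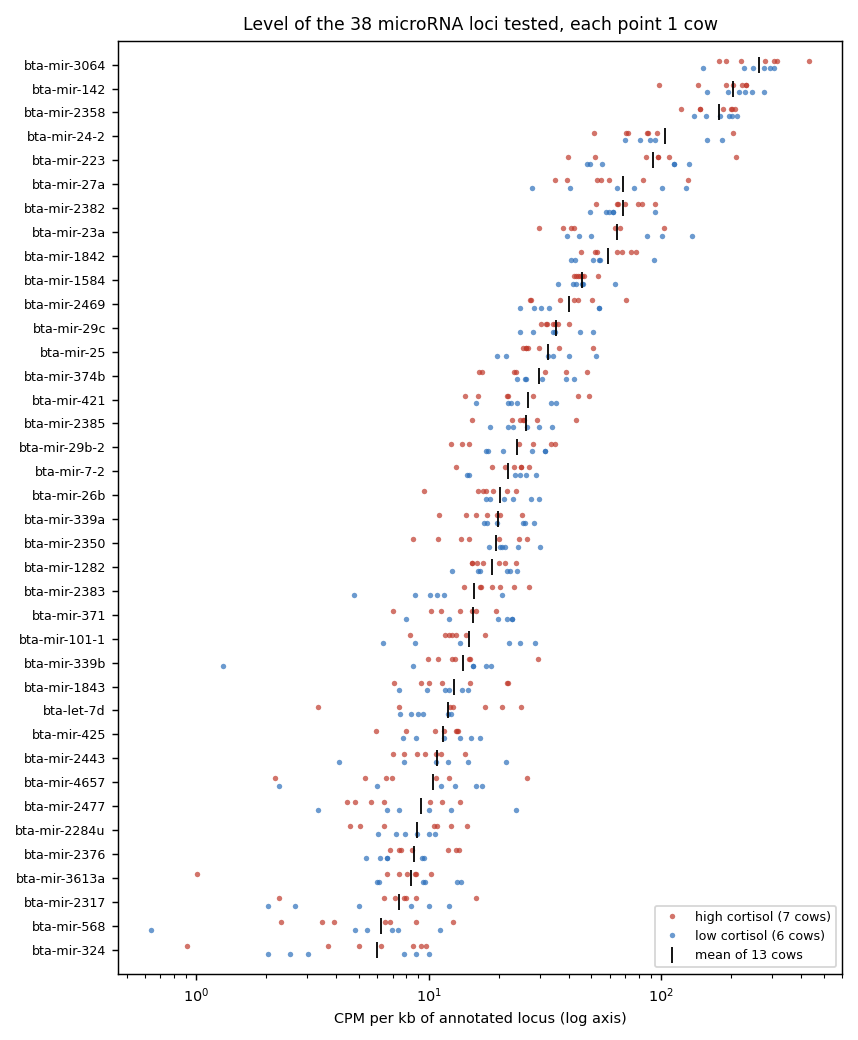
Level of each of the 38 loci that could be tested between the groups, as CPM per kb of annotated locus on a log axis, with 1 point per cow (red for high and blue for low cortisol) and a bar at the mean of 13 cows. The points of both groups overlap at every locus, and levels fall from 264 CPM per kb at bta-mir-3064 to 5.96 CPM per kb at bta-mir-324.

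The loci of the microRNAs best known from blood cells were covered unevenly. A list of 61 such microRNAs matched 86 rows of the tables, of which 23 were among the 66 loci, 45 had 1 to 49 counts and 18 were at 0. Besides bta-mir-142 and bta-mir-223, the loci of the list with the most counts were bta-mir-24-2 (1796), bta-mir-27a (1329), bta-mir-23a (1161) and bta-mir-25 (652). Several other loci of the list had few counts over all 13 cows. The lymphocyte microRNA bta-mir-150 had 26, bta-mir-146a, a brake on innate immune signalling, had 28, bta-mir-155, induced in activated leukocytes, had 6, and bta-mir-17 had 7. Of the red cell microRNAs, bta-mir-144 had 2 counts, and bta-mir-451 and bta-mir-486 had 0, as had bta-mir-126 of platelets and endothelium.

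Counts also differed with the place of a locus in the gene models, which are those of the UMD3.1 build. A locus was called intronic if it lay between the first and last exon of another named gene without touching an exon, and exonic if it touched one, and that gene was called its host. Of the 66 loci, 20 were intronic on the strand of the host, 5 were intronic on the opposite strand, 1 (bta-mir-3064) was exonic, 1 (bta-mir-1282) overlapped an exon of a gene without a name, 38 lay in no named gene and 1 (bta-mir-2904-3) was summed over 10 places in the genome. The 38 loci in no named gene held 67.5% of the counts of the 66. Among all 564 microRNA loci, 18 of the 20 exonic ones (90%) were at 0 counts against 80 of the 210 intronic ones (38.1%), 179 of the 327 in no named gene (54.7%) and 278 of all 564 (49.3%). Of the 10 exonic loci whose host had 10000 or more counts, 9 were at 0. One of these was bta-mir-3533 in *ACTG1*, cytoplasmic actin, with 0 counts against 779642 for its host. The counter named in the file headers was run with no option for reads that touch 2 genes, and its default leaves such reads out of both. Whether this bears on the loci at 0 was not tested. bta-mir-3064, on chromosome 19 of UMD3.1 from 49332072 to 49332155 on the minus strand, overlapped an exon of *DDX5* by 8 of its 84 bases.

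The groups were set against each other by the quasi-likelihood test of edgeR over the 11033 named genes that passed the filter on low counts, 38 microRNA loci among them. At an adjusted p of 0.05, 0 loci were called, against 0.0% of all genes tested, the adjusted p of each of the 38 was 0.999, and DESeq2 and limma-voom also called 0. At an unadjusted p below 0.05 there was 1 locus of 38 (2.63%), against 2.09% of all genes tested. The log2 fold change (high over low) was positive at 16 loci and negative at 22, with a median of -0.05 against 0.01 over all genes, and it ranged from -0.48 at bta-mir-23a (0.043 with the haemoglobin share as a covariate) to 0.81 at bta-mir-2383. Standard errors were large, with a median of 0.30 over the 38 loci against 0.17 over all genes. In 0 of the 66 loci did the CPM of the groups not overlap, which was so for 0.0272% of all genes tested.

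**Figure D2:**
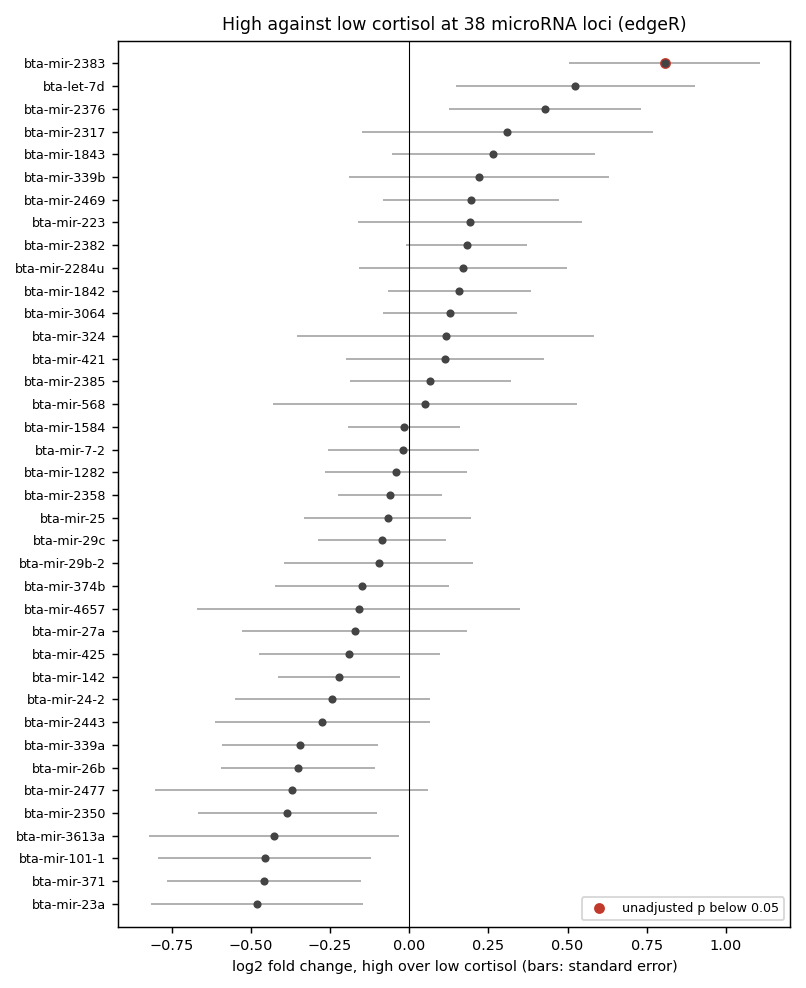
Log2 fold change of high over low cortisol at the 38 loci tested, with bars of 1 standard error (edgeR) and a red dot where the unadjusted p was below 0.05. The values, which are without covariates, run from -0.48 at bta-mir-23a, where the haemoglobin share as a covariate gave 0.043, to 0.81 at bta-mir-2383, which is the 1 locus with a red dot.

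bta-mir-2383 had the largest difference among the 38 loci that edgeR tested. It lies on the plus strand of chromosome 25 from 2988663 to 2988738 in no named gene, 3714 bases from *DNASE1*, and had 282 counts in all, 4 to 41 per cow. Its level in the high group was 1.07 CPM in the lowest cow, 1.43 in the median and 2.04 in the highest, with a mean of 1.49 ± 0.332 (SD, n = 7). In the low group it was 0.360 CPM in the lowest cow, 0.797 in the median and 1.58 in the highest, with a mean of 0.846 ± 0.403 (SD, n = 6). All 7 high cows were above the median of the low group, and the highest low cow, replicate 9, lay within the range of the high group. The log2 fold change was 0.81 ± 0.30 (SE, here and below, edgeR, unadjusted p 0.0164, adjusted p 0.999, n = 7 and 6), and at an unadjusted p below 0.05 and higher in the high group there were 0.934% of all genes tested. A two-sided exact permutation test, which runs through all 1716 ways to part the cows into 7 and 6, gave an unadjusted p of 0.00816 for this locus. The log2 fold change stayed between 0.67 and 1.05 when each cow was left out in turn, and with the haemoglobin share of counts as a covariate it was 0.63 ± 0.38 (edgeR, unadjusted p 0.122). Over the 13 cows the level of the locus had a Spearman rho of 0.70 with the erythroid marker score (permutation p 0.0108, adjusted p 0.385 over 266 pairs of locus and marker list) and a Pearson r of 0.53 (permutation p 0.0667, adjusted p 0.561), and r was 0.53 without the 2 cows with the most extreme score.

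The 4 other loci with the smallest p among those higher in the high group were bta-let-7d (log2 fold change 0.52 ± 0.38, p 0.185), bta-mir-2376 (0.43 ± 0.30, p 0.177), bta-mir-1843 (0.27 ± 0.32, p 0.419) and bta-mir-2382 (0.18 ± 0.19, p 0.356), all by edgeR and unadjusted. For bta-mir-2376, in an intron of *TAPBP*, the high group had 0.463, 0.575 and 0.921 CPM as its lowest, median and highest values and the low group 0.366, 0.451 and 0.651. All 7 high cows were above the low median, but the ranges overlapped, and with the haemoglobin share as a covariate the log2 fold change was 0.038 (edgeR, unadjusted p 0.922). Its level had an r of 0.75 with the erythroid marker score (permutation p 0.00265, adjusted p 0.235 over the 266 pairs), or 0.501 without the 2 cows with the most extreme score, and a rho of 0.53 (permutation p 0.0677, adjusted p 0.529). Single cows moved 3 of these values by over 1.5 times. With a cow left out bta-let-7d ran from 0.32 (without high replicate 4) to 0.70, bta-mir-1843 from 0.12 (without high replicate 1) to 0.37 and bta-mir-2382 from 0.11 (without high replicate 1) to 0.32 (without low replicate 13). With the covariate bta-mir-1843 was at 0.70 (unadjusted p 0.0722), bta-mir-2382 at 0.32 (0.213) and bta-let-7d at 0.35 (0.506). The 5 with the smallest p among those lower in the high group were bta-mir-371 (-0.46 ± 0.31, p 0.153), bta-mir-26b (-0.35 ± 0.24, p 0.167), bta-mir-23a (-0.48 ± 0.34, p 0.172), bta-mir-339a (-0.35 ± 0.25, p 0.179) and bta-mir-2350 (-0.38 ± 0.28, p 0.191). At bta-mir-371 all 7 high cows, from 0.553 to 1.54 CPM, were below the low median of 1.64 CPM, while the low group ran from 0.631 to 1.80 CPM. At bta-mir-23a the value was 0.043 with the haemoglobin share as a covariate (edgeR, unadjusted p 0.913), a share that went with the groups in part. The value was -0.22 without low replicate 8. The rho of bta-mir-23a with the erythroid score was -0.59 (permutation p 0.0354, adjusted p 0.477 over the 266 pairs). Its r was -0.55 (permutation p 0.0443, adjusted p 0.533). The rho of bta-mir-339a with the neutrophil marker score was 0.775 (permutation p 0.00295, adjusted p 0.385 over the 266 pairs). Its r was 0.813 (permutation p 4.0e-04, adjusted p 0.0598), or 0.782 without the 2 cows with the most extreme score. None of these 9 loci passed the edgeR test between the groups.

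At the best covered leukocyte loci the ranges of the groups overlapped widely. bta-mir-142, on chromosome 19 from 9527305 to 9527391, had 8.49, 17.7 and 20.2 CPM (lowest, median and highest) in the high group and 13.7, 19.4 and 24.1 CPM in the low group. By edgeR the log2 fold change was -0.22 ± 0.19, with an unadjusted p of 0.269. bta-mir-223, on chromosome X from 99936305 to 99936412, had 4.28, 10.5 and 22.7 CPM in the high group and 5.17, 9.14 and 14.2 CPM in the low group. By edgeR it had a log2 fold change of 0.19 ± 0.35, with an unadjusted p of 0.593, and 1 cow set the sign, since without replicate 4 of the high group, the highest of all, it was -0.12.

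**Figure D3:**
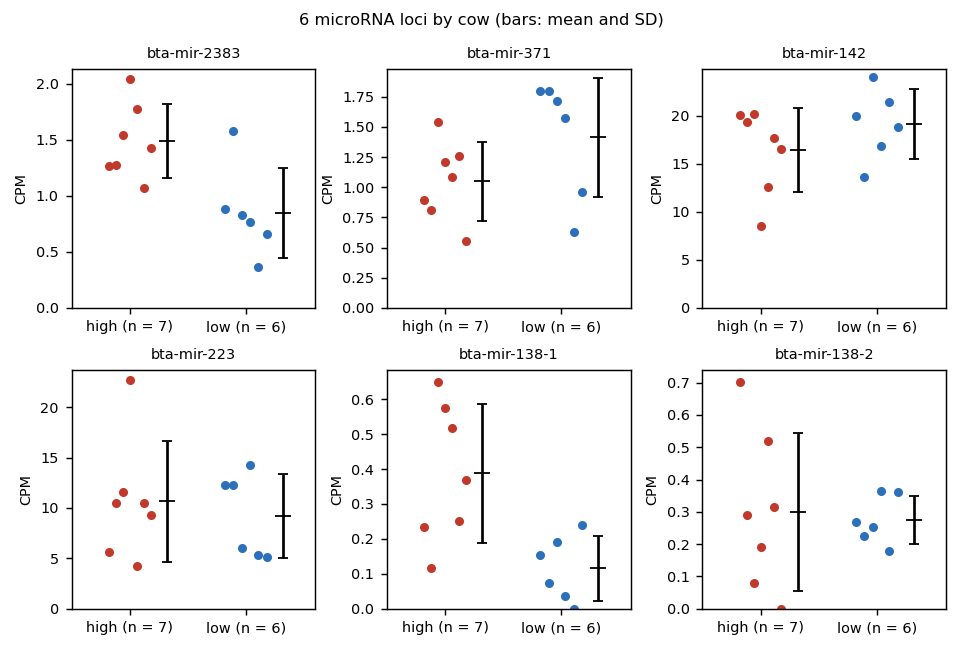
CPM of 6 loci in each cow, high group (n = 7, red) beside low group (n = 6, blue), with the mean and SD as black bars and each axis from 0. At bta-mir-2383 the high cows sit between 1.07 and 2.04 CPM and 5 of the 6 low cows lie below them, while at bta-mir-142 and bta-mir-223 the ranges of the groups overlap widely.

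The remaining 28 loci had 53 to 132 counts each and did not pass the filter of edgeR. They were compared by the exact permutation test of log2 CPM alone. By this test 4 of all 66 loci (6.06%), bta-mir-2383 included, were below an unadjusted p of 0.05, as were 2.18% of the 11906 named genes with 50 or more counts. The 3 others are named for this p, after their values were seen. bta-mir-138-1, with 61 counts (0 to 12 per cow), had 0.116, 0.369 and 0.650 CPM in the high group and 0, 0.114 and 0.240 CPM in the low group (p 0.0117). All 7 high cows were above the low median. The locus bta-mir-138-2, which gives the same mature microRNA from another chromosome, had 0 to 0.703 CPM in the high group and 0.180 to 0.366 CPM in the low group, with an exact permutation p of 0.739. The difference of log2 CPM between the loci was larger in the high group by 1.29, with an exact permutation p of 0.0589, so a different response of the pair was not shown. bta-mir-2338 (80 counts, p 0.0146) and bta-mir-2297 (59 counts, p 0.0286) were lower in the high group, at a mean of 0.269 against 0.418 CPM and of 0.169 against 0.365 CPM. With each cow left out in turn these exact permutation p-values rose to at most 0.0227 for bta-mir-138-1, 0.0417 for bta-mir-2338 and 0.0593 for bta-mir-2297, and the last was reached without replicate 12 of the low group. Adjusted over the 11906 named genes, the exact permutation p of each of the 4 loci was 1, so none passed.

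The agreement of each locus with its host gene was measured over the 13 cows in the 26 loci that had a named host. Many intronic microRNAs are transcribed together with their host. The Spearman rho of log2 CPM was positive in 17 pairs and negative in 9, with a median of 0.102, and the median over all genes against the same loci was close to 0, between -0.03 and 0.02. After adjustment over the 26 pairs, 2 pairs passed a p of 0.05 (permutation test with 100000 resamples). The host ranked among the 5% of genes most alike to its locus in 4 pairs, and its median rank stood at 37.3% of all genes. The 5 loci on the strand opposite to the host had a median rho of 0.456 and the 21 on the same strand 0.03, a difference that was not tested. Per base, loci had a median of 16.6% of the counts of the exons of their host, from 1.94% at bta-mir-2376 in *TAPBP* to 69.5% at bta-mir-339a in *C7orf50*. These shares use annotated lengths alone, with no allowance for reads that overlap a short locus only in part.

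**Figure D4:**
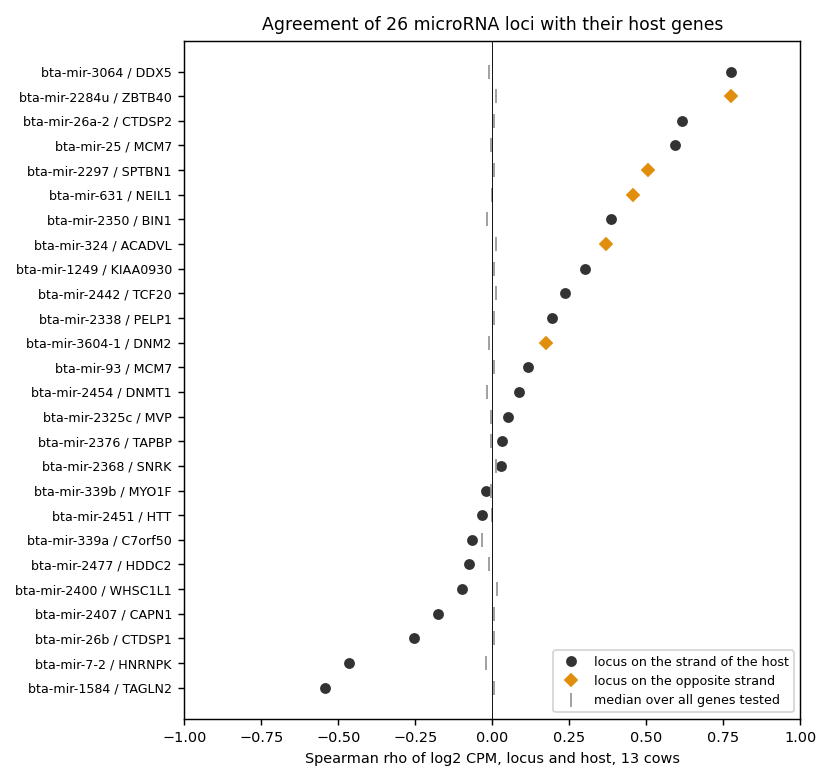
Spearman rho of log2 CPM over 13 cows between each of 26 loci and its host gene, with black circles for loci on the strand of the host, orange diamonds for the opposite strand and a grey tick at the median rho of that locus with all genes tested. The values run from 0.775 at bta-mir-3064 and bta-mir-2284u to -0.544 at bta-mir-1584, around ticks near 0.

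bta-mir-3064 and its host *DDX5*, an RNA helicase that works with *DROSHA*, rose and fell together over the cows. The locus had 14.96, 23.6 and 36.5 CPM (lowest, median and highest) in the high group and 12.7, 22.1 and 25.7 CPM in the low group, and *DDX5* ran from 1027 to 1664 CPM over the 13 cows. Their rho was 0.775 (permutation p 0.00277, adjusted p 0.0360) and r was 0.85 (permutation p 1.6e-04, adjusted p 0.00416), with r at 0.676 without the 2 cows farthest from the median of *DDX5*. Within the groups rho was 0.929 in the high group (n = 7) and 0.143 in the low group (n = 6). Locus and exon overlap by 8 bases. Although this was 1 of the 2 pairs that passed, 284 genes had a higher rho with bta-mir-3064 than *DDX5* had. The 3 most alike over the 13 cows were *SWT1* (0.967), *KDM3A* (0.956) and *AP4E1* (0.945).

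bta-mir-2284u lies on chromosome 2 from 130903852 to 130903927 in an intron of *ZBTB40*, a zinc finger gene, on the opposite strand and 105 bases from an exon. The locus had 161 counts, with 0.348, 0.797 and 1.11 CPM in the high group and 0.459, 0.638 and 0.811 CPM in the low group, and *ZBTB40* ran from 64.8 to 95.6 CPM. The pair had a rho of 0.775 (permutation p 0.00248, adjusted p 0.0360) and an r of 0.81 (permutation p 8.0e-04, adjusted p 0.0104), which was 0.755 without the 2 cows farthest from the median of *ZBTB40*. *ZBTB40* ranked 55 of 11032 genes, and rho stayed between 0.727 and 0.853 with each cow left out. The file headers name no strand option, so reads of the intron of *ZBTB40* and reads of a transcript on the other strand cannot be told apart, and the locus belongs to a large family of similar loci in cattle, so its counts are uncertain. Which pairs passed depended on single cows and on the scaling. Without any 1 of the high replicates 1 to 5, or without low replicate 9, 0 of the 26 passed, and 0 passed with RLE size factors, where rho was 0.753 for bta-mir-2284u and 0.747 for bta-mir-3064.

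The next pairs were bta-mir-26a-2 in *CTDSP2* (rho 0.615), bta-mir-25 in *MCM7* (0.593) and bta-mir-2297 in *SPTBN1* (0.505), with adjusted permutation p-values of 0.232, 0.232 and 0.346. By Pearson's r they were at 0.744, 0.618 and 0.448, with adjusted permutation p-values of 0.0335, 0.148 and 0.564, so bta-mir-26a-2 passed by r and not by rho, and its r was 0.537 without the 2 cows farthest from the median of *CTDSP2*. *CTDSP2* is a phosphatase that acts on RNA polymerase II, *MCM7* a subunit of the helicase that opens DNA for replication, and *SPTBN1* a spectrin of the membrane skeleton. The 5 lowest values were those of bta-mir-1584 in *TAGLN2* (-0.544, permutation p 0.0572, adjusted p 0.298, with r at -0.26), bta-mir-7-2 in *HNRNPK* (-0.467), bta-mir-26b in *CTDSP1* (-0.253), bta-mir-2407 in *CAPN1* (-0.176) and bta-mir-2400 in *WHSC1L1* (-0.0989). bta-mir-1584 was the steadiest of all 66 loci, with 3.09, 3.27 and 3.91 CPM in the high group and 2.63, 3.24 and 4.61 CPM in the low group, while *TAGLN2*, an actin-binding gene, ran from 935 to 2109 CPM. The 7 pairs whose locus had 200 or more counts, bta-mir-3064 and bta-mir-25 among them, had a median rho of -0.07 and the 19 others 0.115, a difference that was not tested.

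The ratio of a locus to its host asks whether the locus moved apart from the host between the groups. The log2 ratio was larger in the high group in 16 pairs and smaller in 10, and 1 of 26 passed an adjusted p of 0.05 by the exact permutation test, of which the smallest possible p was 5.8e-04. This was bta-mir-2297, whose ratio to *SPTBN1* was lower in the high group by 0.96 on the log2 scale (exact permutation p 0.00175, adjusted p 0.0455). It rests on 0 to 9 counts per cow at the locus, while *SPTBN1* itself had a log2 fold of 0.07 ± 0.13 (edgeR, unadjusted p 0.585). Left-out cows gave values from -1.05 to -0.77 for this ratio. The call depended on the prior count, since 0 of the 26 pairs passed with a prior count of 0.5 in place of 2. With a cow left out, 0 passed for 12 of the 13 cows and 2 passed without high replicate 2. Without a high cow the p of bta-mir-2297 was 0.00216 (924 splits), the smallest that the exact permutation test can give there. At that p 1 pair alone cannot pass over 26 pairs, so these runs cannot show whether the call rests on single high cows. Without a low cow its exact permutation p was 0.00505 to 0.00884. The second pair was bta-mir-2376 and *TAPBP*, tapasin of the MHC class I loading complex, where the ratio was higher in the high group by 0.57 (exact permutation p 0.0186, adjusted p 0.242).

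For loci in no named gene, the nearest named gene within 5000 bases was compared in the same way, which was decided after the host pairs had been seen. Over these 24 pairs the median rho was 0.0797, 14 were positive, and 2 passed an adjusted p of 0.05. bta-mir-371, on chromosome 18 from 61145844 to 61145922, lies 2781 bases from *NLRP12*, a receptor gene of myeloid cells, on the opposite strand. *NLRP12* ran from 14.8 to 42.9 CPM, and the pair had a rho of 0.879 (permutation p 1.9e-04, adjusted p 0.00456) and an r of 0.865 (permutation p 1.3e-04, adjusted p 0.00288), or 0.833 without the 2 cows farthest from the median. *NLRP12* ranked 2 of 11032 genes by its rho with this locus, and rho was 0.893 in the high group (n = 7) and 0.657 in the low group (n = 6). The log2 fold change of *NLRP12* was -0.41 ± 0.19 (edgeR, unadjusted p 0.0466, adjusted p 0.999), beside -0.46 for the locus. The second pair was bta-mir-2358 and *RCC2*, a regulator of mitosis 641 bases away on the same strand, with a rho of 0.819 (permutation p 0.00104, adjusted p 0.0125) and an r of 0.863 (permutation p 2.4e-04, adjusted p 0.00288), or 0.885 without 2 cows. *RCC2* ran from 121 to 185 CPM and bta-mir-2358 from 7.79 to 13.6 CPM, and their log2 fold changes were -0.07 ± 0.11 and -0.06 ± 0.16 (edgeR, unadjusted p 0.528 and 0.715). bta-mir-2383 and *DNASE1* had a rho of -0.489 (permutation p 0.0938, adjusted p 0.212).

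Some loci lie close together and are known to be cut from 1 primary transcript, and 12 pairs of the 66 loci lay within 2000 bases of each other. Not all of these can share a transcript. bta-mir-3596 lies on the strand opposite to bta-let-7a-3 (rho 0.0769) and to bta-mir-2443 (rho -0.280). With these pairs included, the median rho of the 12 was 0.448, and 3 pairs passed an adjusted p of 0.05 (permutation test). All 3 were within the cluster of bta-mir-23a, bta-mir-27a and bta-mir-24-2 on the minus strand of chromosome 7 between 12981642 and 12982042. bta-mir-27a and bta-mir-23a, 101 bases apart, had a rho of 0.929 (permutation p 2.0e-05, adjusted p 2.4e-04) and an r of 0.903 (permutation p 2.0e-05, adjusted p 1.8e-04), or 0.836 without 2 cows. bta-mir-24-2 had a rho of 0.857 with bta-mir-23a (adjusted permutation p 0.00276, r 0.887, or 0.81 without 2 cows) and of 0.709 with bta-mir-27a (adjusted permutation p 0.0341, r 0.797, or 0.586 without 2 cows), and the 3 loci had counts per base within 1.57 times of each other. The ranges of the groups overlapped in all 3, with 2.72, 4.31 and 10.2 CPM in the high group and 2.16, 5.48 and 9.95 CPM in the low group for bta-mir-27a, and 2.17, 3.09 and 7.53 CPM against 2.88, 5.00 and 9.88 CPM for bta-mir-23a.

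The other clusters were less tied. bta-mir-29c with bta-mir-29b-2 (rho 0.659), bta-mir-374b with bta-mir-421 (0.643) and bta-mir-2382 with bta-mir-1842 (0.599) did not pass by rho, with adjusted permutation p-values of 0.05004, 0.0503 and 0.0661. By r they were at 0.45, 0.58 and 0.68, and the third passed (adjusted permutation p 0.0323), although its r was 0.361 without the 2 cows farthest from the median. In an intron of *MCM7*, bta-mir-25 had 652 counts and bta-mir-93, 123 bases away on the same strand, had 57, a ratio per base of 10.5, and their rho was 0.297 (permutation p 0.325, adjusted p 0.528). The pair in the cluster of bta-mir-425 and bta-mir-191 had 2.41 times as many counts per base at the former, with a rho of -0.236, and for bta-mir-221 and bta-mir-222 on chromosome X the ratio was 2.03 and rho was -0.0385 (adjusted permutation p-values 0.582 and 0.906).

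**Figure D5:**
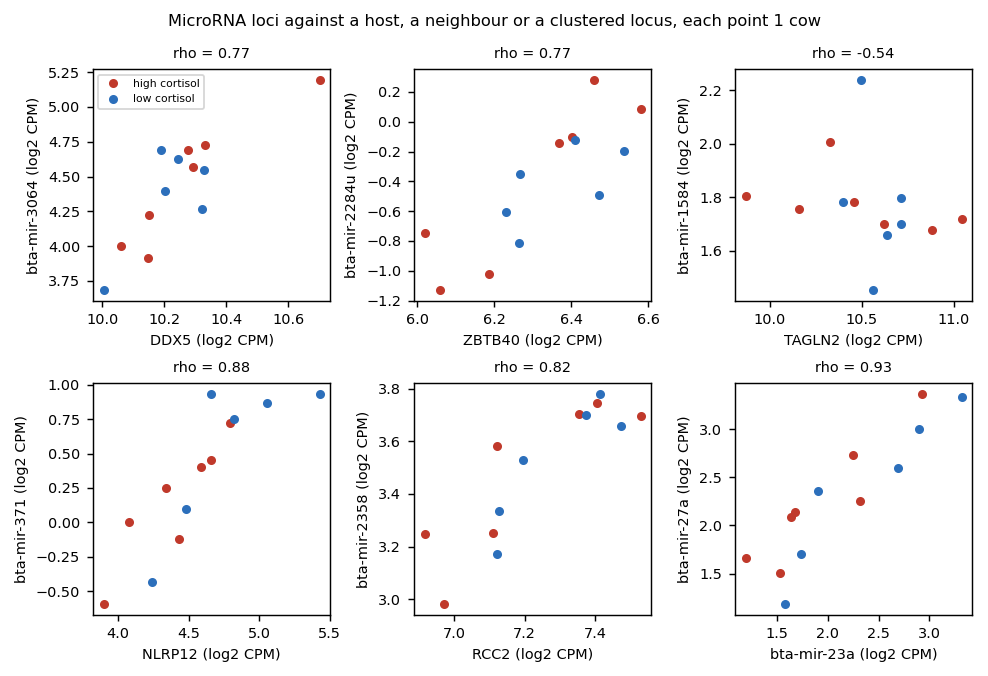
Log2 CPM of a locus against that of its host (DDX5, ZBTB40, TAGLN2), its neighbour (NLRP12, RCC2) or a locus of its cluster (bta-mir-23a) in 13 cows, high group in red and low group in blue. In 5 panels the points rise from left to right, with rho from 0.775 to 0.929, and in the panel of bta-mir-1584 against TAGLN2 they fall, with a rho of -0.544.

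Over all genes tested, those most alike to the loci with the most counts by Spearman rho over the 13 cows were as follows, as a description of these cows. bta-mir-223 was most like *VEZF1* (0.989), *SLK* (0.956) and *RNF145* (0.951), bta-mir-142 most like *MED12L* (0.874), *TRAIP* (0.863) and *TESK2* (0.857), bta-mir-2358 most like *WARS* (0.918), *SNX15* (0.912) and *ZYX* (0.907), and bta-mir-24-2 most like *NFIL3* (0.879), bta-mir-23a (0.857) and *UBB* (0.857). bta-mir-2383 was most like *RAB22A* (0.896), *TMEM64* (0.885) and *C10orf35* (0.879). Across the 38 loci and 7 marker lists, 0 of 266 correlations passed an adjusted p of 0.05 by rho, and the smallest was that of bta-mir-25 with the monocyte score (rho -0.84, permutation p 6.1e-04, adjusted p 0.162; r -0.83, permutation p 4.5e-04, adjusted p 0.0598, and -0.85 without 2 cows).

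None of the genes that make and use microRNAs passed the test between the groups (edgeR). Of a list of 30 such genes, 28 were in the tables and 26 were tested. At an adjusted p of 0.05 there were 0 (0.0% of all genes tested), at an unadjusted p below 0.05 there was 1 (2.09% of all genes tested), 15 were higher and 11 lower in the high group, and the median log2 fold change was 0.02 against 0.01 over all genes. *DROSHA* had 13.3, 15.7 and 16.6 CPM (lowest, median and highest) in the high group and 13.7, 15.4 and 15.7 CPM in the low group, at a log2 fold change of 0.02 ± 0.11 (edgeR, unadjusted p 0.872). By the same test *DGCR8* was at 0.01 ± 0.09 (unadjusted p 0.891), *DICER1* at 0.20 ± 0.19 (p 0.311) and *AGO2*, the Argonaute that cuts target mRNAs, at -0.08 ± 0.11 (p 0.479). The 1 gene below 0.05 was *AGO3*, with 2.67, 3.09 and 5.11 CPM in the high group and 2.18, 2.47 and 3.51 CPM in the low group, overlapping ranges and a fitted log2 difference of 0.47 ± 0.22 (edgeR, unadjusted p 0.0444, adjusted p 0.999).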

How the data were processed

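The authors deposited counts, the whole number of reads assigned to each gene name in each of 13 blood samples, without normalization. Per the file headers they were made with featureCounts 1.4.6-p3 and Ensembl release 88 gene models of UMD3.1, and no setting is named there for strand, pairing or reads that fit several genes. The submitters' processing notes and the paper instead name STAR 2.7.3, Subread 1.6.5 and ARS-UCD1.2, and which of these made the deposited counts is not known. The headers also hold animal numbers and a folder name that differ from the labels. Positions are from the count tables, on UMD3.1. Genes without a name share 1 entry with 13.9% to 16.7% of the counts of a cow, which was left out. Named-gene counts per cow were 11045599 to 28124575.

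CPM and, with a prior count of 2, log2 CPM were derived after TMM scaling. Groups came from the sample labels, and cows were compared with edgeR 4.0.16 (robust quasi-likelihood fit, filterByExpr with minimum count 10 and minimum total 15, no covariates, Benjamini-Hochberg over all genes tested) in R 4.3.3. The standard error (SE) comes from the F statistic of the test, as the fold change over its root. Loci below the filter, and ratios of locus to host, were compared by exact two-sided permutation tests over 1716 splits. Spearman and Pearson correlations had two-sided permutation p-values from 100000 resamples (numpy 2.4.6, scipy 1.17.1). A host is a named gene, no small RNA, that spans the locus on either strand. In log2 CPM, fold changes of low loci are understated. Of these steps, the edgeR fit alone was first tested on simulated counts.

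Named are bta-mir-2383, the 10 loci with the highest mean CPM, the 5 with the smallest p in each direction, the 5 host pairs with the highest and the 5 with the lowest rho, loci of a list of blood cell microRNAs, for 6 loci the 3 most alike genes, and *DROSHA*, *DGCR8*, *DICER1*, *AGO2* and processing genes with an unadjusted p below 0.05. The loci and gene lists were chosen with earlier results of these data known. Neighbour pairs, clusters, the comparison of bta-mir-138-1 with bta-mir-138-2, marker scores and the exact test for loci below the filter were added after values had been seen. The alternatives were DESeq2 1.42.0, limma-voom (limma 3.58.1), RLE factors, no filter, the log2 haemoglobin share as a covariate, haemoglobin genes left out, an adjusted p of 0.1, prior count 0.5, Pearson's r, values centred within groups, loci with 200 or more counts, and each cow left out.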

Additional observations from a re-analysis of the deposited data

Results flagged for a closer look

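For 27 of the loci named above, 54 groups of cows (7 high or 6 low) were checked for a cow whose CPM stood apart. This means that its gap to the nearest cow took more of the range than Dixon's 95% critical value. For normal values chance flags about 1 in 20 groups, 2.7 here, and 8 were flagged, each at the highest cow of its group. CPM need not be normal and the groups of clustered loci are not independent, so the 2 numbers cannot be set against each other as a test. At bta-mir-2382 and bta-mir-1842, which lie 187 bases apart, replicate 13 of the low group was the highest in both, with 7.21 CPM (next cow 4.79) and 5.59 CPM (next 3.26). Replicate 4 of the high group was highest at bta-mir-223, with 22.7 CPM (next 11.6), and at bta-mir-26a-2, with 1.02 CPM (next 0.521). At bta-mir-24-2 replicate 2 of the high group had 14.7 CPM (next 6.88), and at bta-mir-25 replicate 7 of the high group had 4.28 CPM (next 3.05). bta-mir-1584, the steadiest locus, was flagged in both groups, with 3.91 CPM in replicate 6 of the high group (next 3.38) and 4.61 CPM in replicate 11 of the low group (next 3.37).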

How the results depend on the processing

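The count of microRNA loci at an adjusted p of 0.05 was 0 under each alternative run and with each cow left out. At an unadjusted p below 0.05, 1 locus became 2 with DESeq2 (all 66 loci tested), 2 if low counts were not filtered, 0 if the haemoglobin share was a covariate, and 1 to 3 with a cow left out (3 without replicate 2 of the high group). Of the processing genes, 1 became 0 by limma-voom, 0 if the haemoglobin share was a covariate, and 0 to 2 with a cow left out. Of host pairs, 2 became 0 with RLE size factors, 1 with values centred within groups and 1 among loci with 200 or more counts (7 pairs), 3 passed by Pearson's r, and 0 to 2 passed with a cow left out. Of ratios to the host, 1 became 0 with a prior count of 0.5, and 0 to 2 passed with a cow left out (2 without replicate 2 of the high group, 0 without any other cow). When a high cow was left out, 1 pair alone could not pass, because the smallest possible exact permutation p was too large after adjustment. Of 224 log2 fold changes of 12 named loci under the alternatives, 222 kept their direction. The exceptions were bta-mir-23a, at 0.043 with that covariate, and bta-mir-223, which ran from -0.12 (without replicate 4 of the high group) to 0.36 with a cow left out. bta-mir-2376 passed the filter in 9 of the 13 fits with a cow left out. The causes were not tested. No paired analysis was possible because the groups share no replicate numbers. The median locus had 146 counts over 13 cows, and the median standard error of a log2 fold change was 0.30 at the 38 loci tested.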
